A study of Mus musculus with 6 samples.

Results

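Mouse skin exposed to bleomycin, with or without one of 2 cannabinoid-derived drugs, was profiled by RNA sequencing, and the collagen genes outside the main fibril-forming group were followed through the libraries. Among the 27179 genes of the count table, 44 had a symbol of the form used for collagen chains. The set described here is 35 of these 44, chosen by a rule on the symbol that uses no measured value, but with earlier results of these data known. Left out were 9 genes, namely 7 chains of the fibrils of types I, III, V and XI together with Col8a1 and Col12a1. The last 2 encode non-fibrillar chains, so the set does not hold all non-fibrillar collagen genes. Of the 35, 31 encode non-fibrillar chains. The symbol rule also keeps Col2a1, Col11a2, Col24a1 and Col27a1, which encode fibrillar chains, so the name non-fibrillar does not describe these 4 and they are given apart. Enough counts for testing were present for 33 of the 35. Col9a1 and Col9a2 were too low, with 0 to 8 and 3 to 6 counts per library.

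All animals were female BALB/c mice of 6 to 8 weeks with no genetic alteration named in the labels, and the tissue was skin. The control group, the bleomycin group and the group given bleomycin with EHP-101 each had 1 library, and the group given bleomycin with ajulemic acid had 3 libraries. Bleomycin is an antibiotic that breaks DNA and is used to produce skin fibrosis in mice. EHP-101 is an oral formulation of a cannabidiol derivative, and ajulemic acid is a synthetic cannabinoid; the labels give no doses, times or routes and do not say how the control animal was treated. Whether the 3 ajulemic acid libraries are from different mice is not in the labels. Their spread, which may be technical, is the one behind every p-value and is applied to the groups of 1.

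Non-fibrillar collagens are trimers that do not build the banded fibrils of the dermis. Type IV collagen forms the sheet-like scaffold of basement membranes, type VII forms the fibrils that anchor the epidermal basement membrane to the dermis, and type XVII spans the membrane of basal keratinocytes at hemidesmosomes. Type VI forms beaded microfilaments around cells, and the FACIT collagens (fibril-associated collagens with interrupted triple helices) sit on the surface of fibrils.

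Library totals ran from 14291592 to 19837682 counts, and mitochondrial ribosomal RNA took 17.3% to 26.5% of them. Summed levels in CPM (counts scaled to a common library size) of marker genes for other cell types differed between libraries. Those of 11 hair follicle genes were 6997 CPM in the control, 585 in the bleomycin library and 5670 in the EHP-101 library, and 6377, 341 and 14331 in ajulemic acid replicates 1, 2 and 3. Those of 12 hepatocyte genes were 1038, 738 and 669 CPM and 66.4, 130 and 21.7 in the same order, and those of 10 skeletal muscle genes ran from 2564 in the control to 7073 in the bleomycin library. Basal keratinocyte genes (5409 to 8809 CPM) and fibroblast genes (1480 to 3480 CPM) were detected in all 6 libraries. In bulk tissue, fewer cells of a type and less RNA per cell cannot be told apart.

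The 35 genes together took 0.314% of all counts in the control library, 0.394% in the bleomycin library and 0.375% in the EHP-101 library. In the ajulemic acid libraries they took 0.354%, 0.265% and 0.325%. The 9 collagen genes left out took 0.627%, 0.821% and 0.440% in the first 3 libraries and 0.399% to 0.442% under ajulemic acid. Per length of transcript, in RPKM (CPM per kilobase of exon), the 35 covered a wide range. Mean RPKM over the 6 libraries was 10 or more for 11 genes, from 1 to 10 for 9 and under 1 for 15. Col17a1 had the highest mean, 191 RPKM, with Col4a1 next at 66.4 (40.7 to 85.8 over libraries). The type VI chains Col6a1, Col6a2 and Col6a3 followed at 44.2, 41.8 and 38.2 RPKM, close to Col4a2 at 36.9 and Col18a1 at 32.7. Within each library Col4a1 stood above these 5 genes, except in the bleomycin library, where Col6a1 was at 58.4 RPKM and Col4a1 at 55.6. The order of the 5 among themselves was not the same in all libraries. Col17a1 stood above all other members in every library. Col9a1 was lowest at 0.065 RPKM. Col17a1 alone gave 25.1% of the members' counts in the control library, 32.8% in the bleomycin library, 29.1% in the EHP-101 library and 27.2% to 36.6% in the ajulemic acid libraries.

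**Figure D1:**
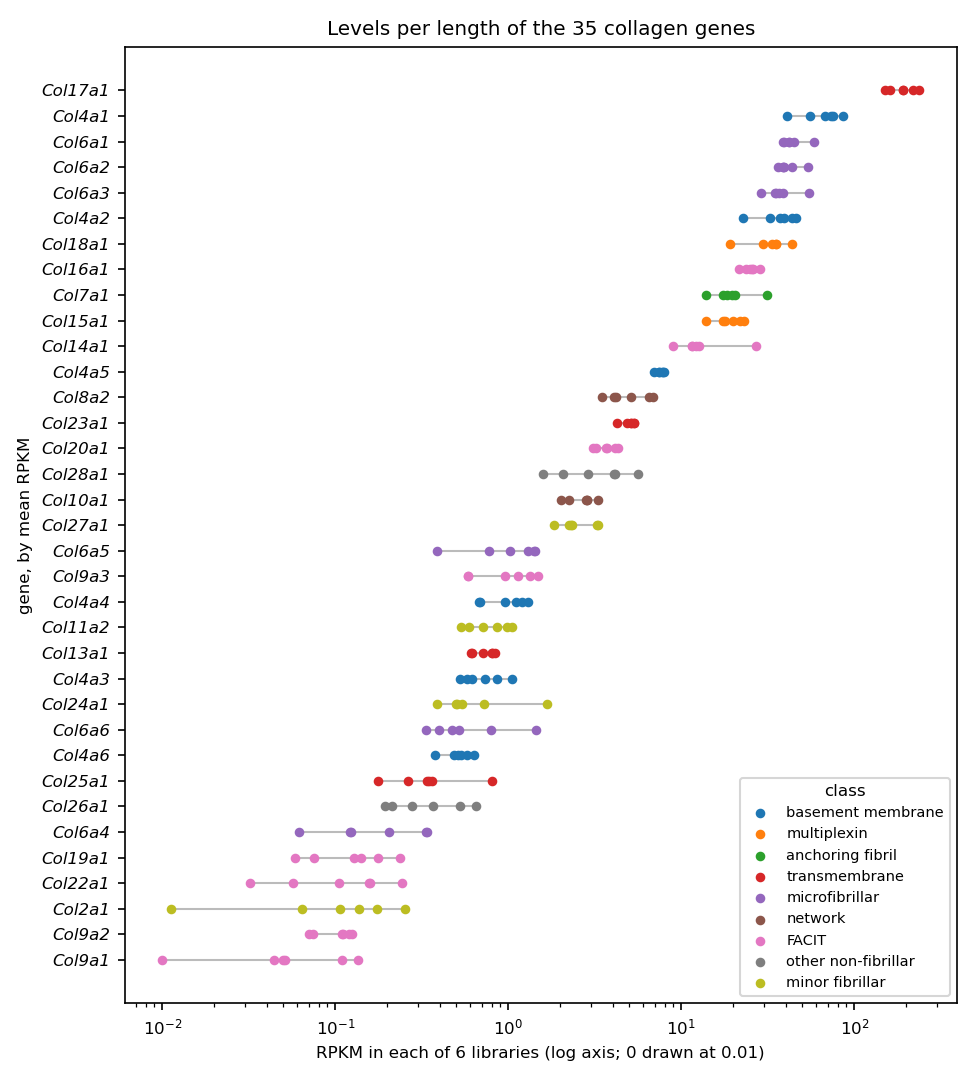
Level per length (RPKM, log axis) of each of the 35 genes in each of 6 libraries, ordered by mean and coloured by class. Col17a1 lies apart at the top with a mean of 191 RPKM, and 15 genes have means under 1.

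The bleomycin library had higher values than the control for 20 of the 33 tested members, Col24a1, Col6a5, Col28a1 and Col7a1 among them, and lower values for 13, Col14a1 and Col6a6 among them, but no member passed the adjusted threshold of edgeR's quasi-likelihood test in any of 6 comparisons. DESeq2 called 1 member, Col14a1, in 1 of the 6, and limma called 0. The median log2 fold change of the 33 between bleomycin and control was 0.26 against -0.01 over all 17377 tested genes, of which 49.5% were positive. Unadjusted p was under 0.05 for 4 members with higher values (Col24a1, Col6a5, Col28a1 and Col7a1) and 2 with lower values (Col6a6 and Col14a1), where the shares over all tested genes were 4.7% and 2.1%. The share of all genes with an adjusted p under 0.05 was 0% by edgeR, where limma called 0 and DESeq2 called 128 higher and 37 lower. The smallest adjusted p of a member was 0.518, for Col24a1. The bleomycin library was the highest of the 6 for 9 of the 33 tested members and the lowest for 0, where the shares over all genes were 17.0% and 16.8%. The 9 were Col6a1, Col6a2, Col6a3, Col17a1, Col24a1, Col27a1, Col28a1, Col7a1 and Col4a5.

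With EHP-101 the members' median against the bleomycin library was 0.01, with 17 of 33 positive, and the median of all genes was 0.00. Only Col24a1 had an unadjusted p under 0.05, on the lower side. Over all genes, 0.575% were higher and 1.32% lower at that level. Of all genes, 0% passed the adjusted threshold by edgeR (0 by limma, and 2 higher and 8 lower by DESeq2). Leaving out ajulemic acid replicate 1 gave 0 members higher and 1 lower at that level, beside 26 and 80 of all 17384 genes tested. The members counted were 3 and 1 when replicate 2 was left out, beside 730 and 403 of 17315 genes. They were 1 and 2 when replicate 3 was left out, beside 332 and 539 of 17327 genes. With ajulemic acid 23 of 33 members were negative against the bleomycin library, with a median of -0.22 against 0.02 over all genes. Unadjusted p was under 0.05 for 6 members, all with lower values: Col24a1, Col6a3, Col6a1, Col6a2, Col7a1 and Col27a1. Over all genes, 3.21% were lower and 0.622% higher at that level, and 0% passed the adjusted threshold by edgeR (0 by limma, and 4 higher and 99 lower by DESeq2). Without ajulemic acid replicate 1, 1 member was lower at an unadjusted p under 0.05, beside 298 of all 17384 genes tested. Without replicate 2, 8 members were lower and 1 higher, beside 971 and 1311 of 17315 genes. All 3 ajulemic acid libraries lay below the bleomycin library for 16 of the 33 members (48.5%) and above it for 0, against 24.6% and 22.9% of all genes. These comparisons share the single bleomycin library, so a high value there sets a positive difference in the first and negative ones in the others. The 9 collagen genes left out had medians of 0.32, -0.90 and -0.88 in the same 3 comparisons, larger in size than the members' medians in each; with EHP-101 and with ajulemic acid 0 of those 9 were positive.

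**Figure D2:**
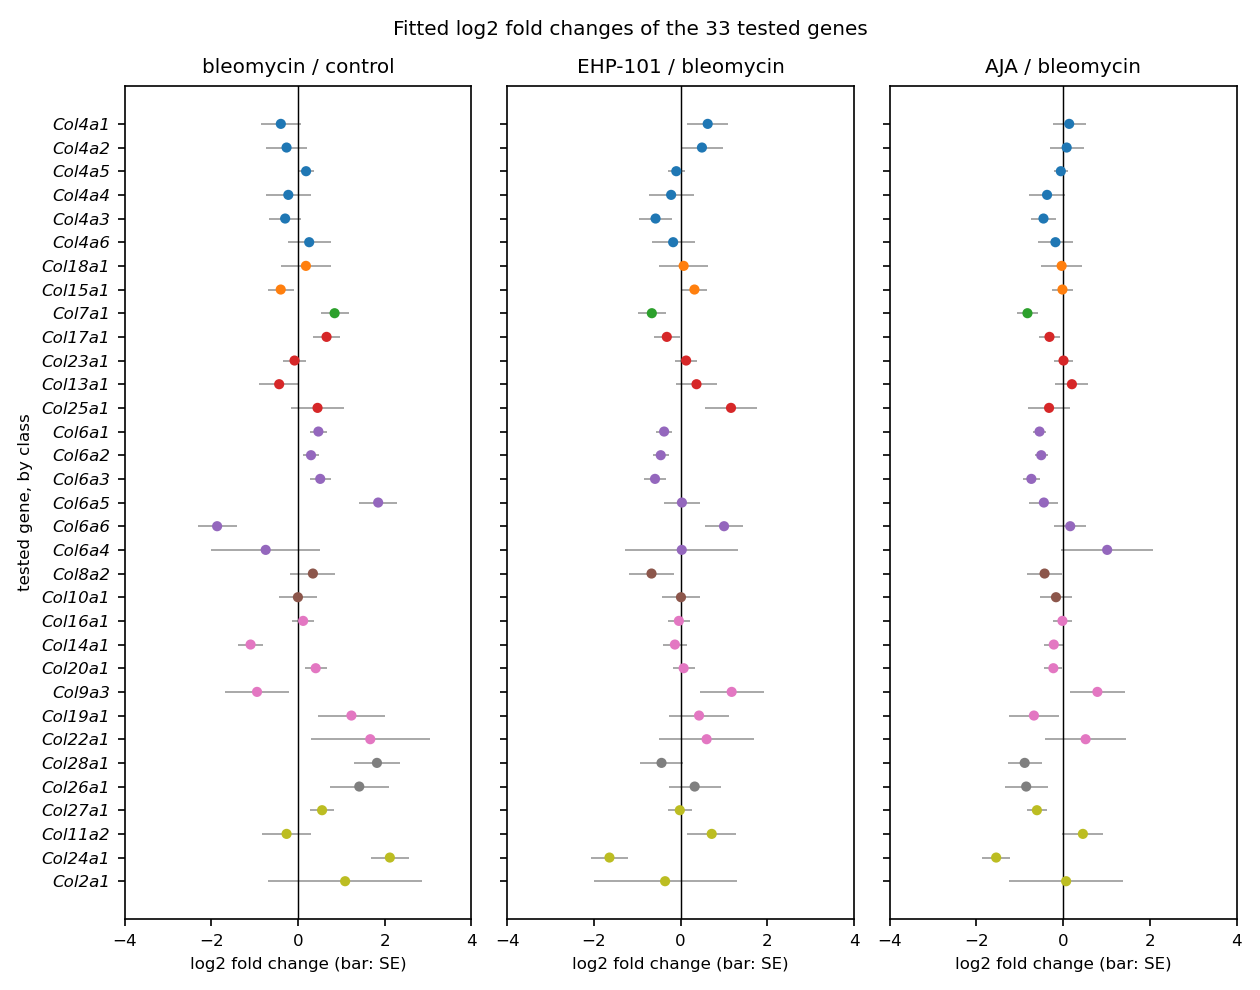
Fitted log2 fold changes (points) with standard errors (bars) of the 33 tested genes, by class, for bleomycin against control and each drug against bleomycin. Most values lie within 1 unit of 0; Col24a1 is at 2.12, -1.64 and -1.55 in the 3 panels, and Col6a6 and Col14a1 are at -1.87 and -1.09 in the first.

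**Figure D3:**
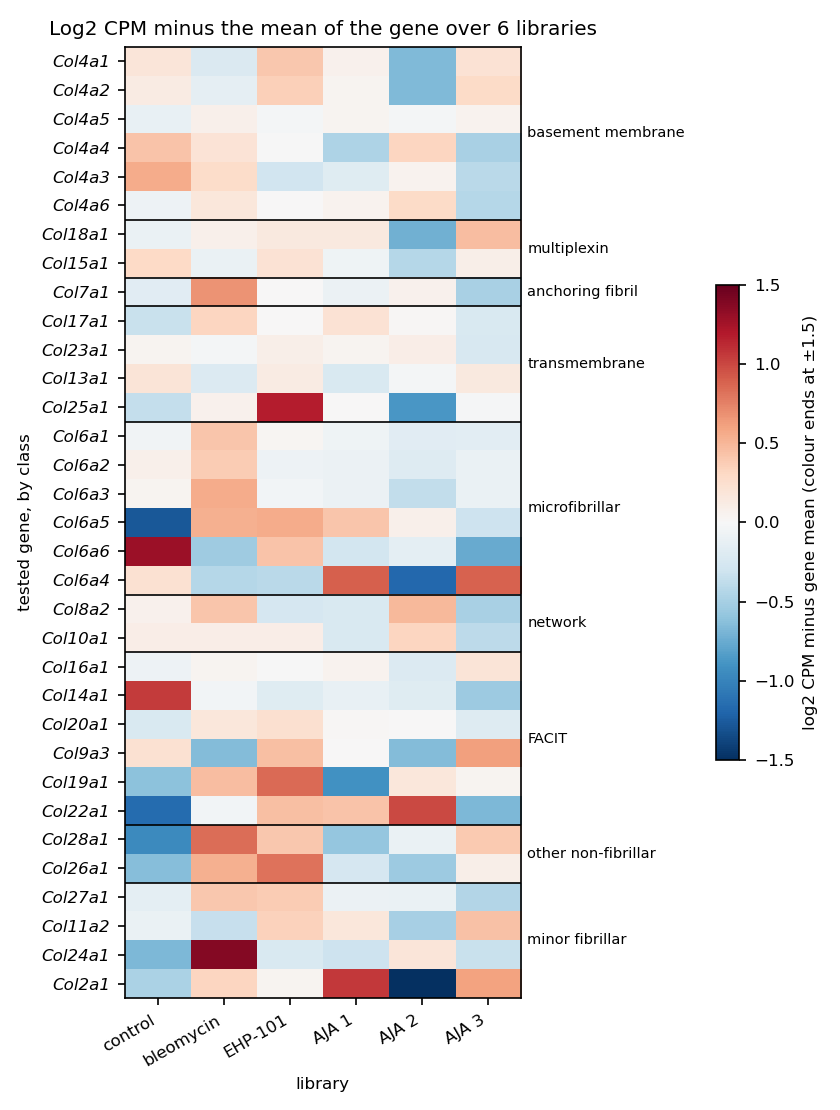
Log2 CPM of each tested gene minus its mean over the 6 libraries, by class. The bleomycin column is the highest of the 6 for 9 genes, and the second ajulemic acid column is low for Col4a1, Col4a2, Col15a1 and Col18a1.

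Among the basement membrane chains, the Col4a1 and Col4a2 pair found in nearly all basement membranes was lower in the bleomycin library than in the control, and the 2 chains varied together. Col4a1 (chr8:11198423-11312826, mm10, minus strand) and Col4a2 (chr8:11312829-11449287, plus strand) start 2 bases apart and are read in opposite directions. Col4a1 was at 484 CPM in the control, 368 in the bleomycin library and 567 in the EHP-101 library. Under ajulemic acid it was at 448, 269 and 498 CPM (405 ± 120, SD, n = 3). Ajulemic acid replicate 2 was the lowest of the 6 and the bleomycin library the next, so the ajulemic acid group lay on both sides of the bleomycin value. Col4a2 was at 252, 210 and 295 CPM, and at 238, 146 and 282 under ajulemic acid (222 ± 69.5), in the same order of libraries. Per length, Col4a1 stood to Col4a2 at 1.87 in the control (exact binomial 95% interval 1.80 to 1.94), 1.70 in the bleomycin library (1.63 to 1.78) and 1.87 with EHP-101 (1.80 to 1.94), and at 1.78 ± 0.0577 under ajulemic acid. The ratio thus stayed within a narrow range while the level of Col4a1 differed about as much between ajulemic acid replicates as between groups. The intervals cover counting error only.

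The 2 libraries with the lowest Col4a1 and Col4a2 were also those with the lowest summed hair follicle markers, 585 CPM in the bleomycin library and 341 in ajulemic acid replicate 2. The multiplexin genes Col15a1 and Col18a1, whose products carry heparan or chondroitin sulfate chains in basement membrane zones, followed in part. Col15a1 was at 122 CPM in the control, 92.5 and 115 in the bleomycin and EHP-101 libraries, and 95.2, 73.6 and 106 under ajulemic acid. Col18a1 was at 171, 194 and 203 CPM, and at 203, 111 and 253 under ajulemic acid (189 ± 72.0). For both, ajulemic acid replicate 2 was the lowest of the 6, while the bleomycin library was above the control for Col18a1 and below it for Col15a1. Summed markers of endothelial cells, another source of type IV collagen, ran from 159 to 260 CPM, with 239 in the bleomycin library and 207 in ajulemic acid replicate 2. The part of hair follicle or endothelial content in these differences was not tested. No comparison of these 4 genes had an unadjusted p under 0.05; Col4a1 differed by 0.62 on the log2 scale between the EHP-101 and bleomycin libraries, with a standard error of 0.47.

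**Figure D4:**
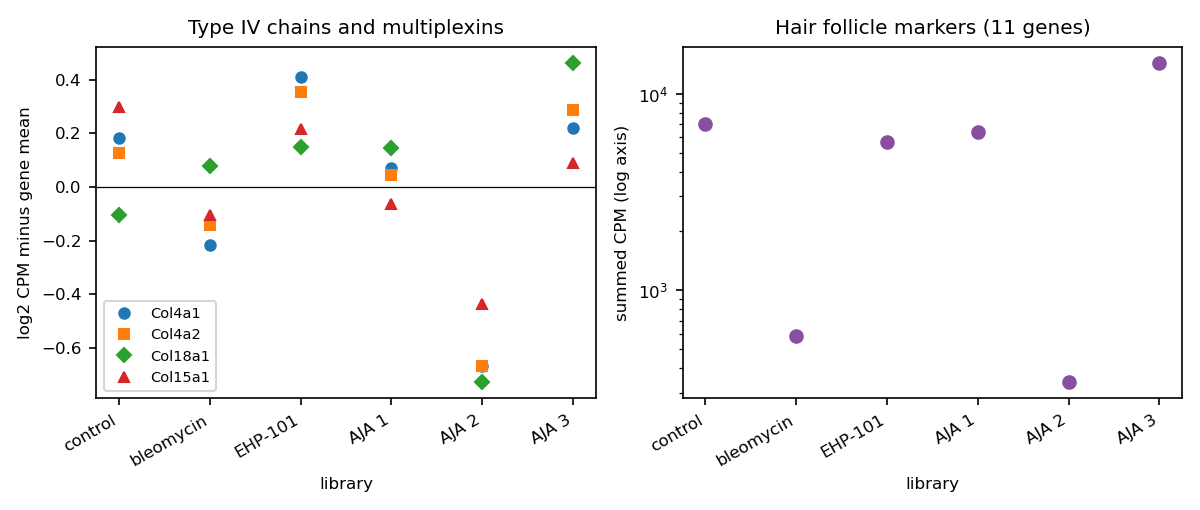
Left, log2 CPM of the type IV and multiplexin genes minus the mean of each gene in the 6 libraries; right, summed CPM (log axis) of 11 hair follicle markers in the same libraries. The bleomycin library and the second ajulemic acid library are lowest on the right, at 585 and 341 CPM, and lowest for Col4a1 and Col4a2 on the left.

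Col4a3, Col4a4, Col4a5 and Col4a6 encode the chains of more restricted type IV networks, known from kidney, and in the case of Col4a5 and Col4a6 also from the epidermal basement membrane. Col4a5 was at 45.5 CPM in the control, 51.7 and 48.3 in the bleomycin and EHP-101 libraries and 49.8 ± 1.45 under ajulemic acid. Col4a6 was at 3.22, 3.85 and 3.42 CPM and 3.41 ± 0.854. Col4a3 was highest in the control at 9.07 CPM, with 7.38 and 4.94 in the bleomycin and EHP-101 libraries and 5.32, 6.31 and 4.54 under ajulemic acid. All 5 bleomycin-exposed libraries were thus below the control for Col4a3. Its log2 fold change between ajulemic acid and control was -0.75 (SE 0.29), with an unadjusted p of 0.0494 and an adjusted p of 0.701 by edgeR. Col4a4 was at 10.1, 8.66 and 7.44 CPM and at 5.39, 9.40 and 5.29 under ajulemic acid, likewise highest in the control. Col4a3 and Col4a4 are also read away from each other, with 71 bases between their starts. The stretch between them is shown because both genes are read from it, on the strand of Col4a4, and held none of the motifs searched. It is chr1:82586850-82586920 of RefSeq's GRCm38.p6, 5′ to 3′.
Col4a4 and Col4a3 shared start region: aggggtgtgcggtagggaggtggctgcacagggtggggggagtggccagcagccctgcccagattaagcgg

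The genes of the epidermal anchorage, Col17a1 and Col7a1, had their highest values in the bleomycin library. Col17a1 (chr19:47646341-47692042, minus strand) was at 815 CPM in the control, 1286 in the bleomycin library and 1032 with EHP-101, and at 1189, 1037 and 874 under ajulemic acid (1033 ± 158). The control was the lowest of the 6, and the 3 ajulemic acid libraries all lay between control and bleomycin. Its log2 fold change between bleomycin and control was 0.66 (SE 0.31). Col7a1 (chr9:108953745-108984875, plus strand), the chain of the anchoring fibril, was at 159 CPM in the control, 286 in the bleomycin library and 181 with EHP-101, and at 169, 188 and 128 under ajulemic acid (162 ± 31.0). The bleomycin library stood alone and the other 5 overlapped. Between bleomycin and control Col7a1 differed by 0.84 (SE 0.32), with an unadjusted p of 0.0479 and an adjusted p of 0.733 by edgeR. Between ajulemic acid and bleomycin it differed by -0.82 (SE 0.25; unadjusted p 0.0223, adjusted p 0.998 by edgeR), and between EHP-101 and bleomycin by -0.66 (SE 0.32). Summed basal keratinocyte markers had the same lowest and highest library as Col17a1, with 5409 CPM in the control, 8809 in the bleomycin library, 6736 with EHP-101 and 6258 to 7444 under ajulemic acid. The part of basal keratinocyte content in the Col17a1 and Col7a1 values was not tested. A microRNA gene, Mir711, shares 36 bases of exon with Col7a1 on the same strand.

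The sequences before the Col7a1 and Col17a1 starts are shown because these are the epidermal anchorage genes that were highest together in the bleomycin library. Motifs were searched on both strands in the 250 bases before each start given in RefSeq's promoter table for GRCm38.p6 (for Col7a1 this start lies upstream of the first counted exon), in which 29 of the 35 members had 32 windows. The GC box (GGGCGG) was in 32.7% of all 32851 windows and in 17 of the members' 32, the CCAAT box (CCAAT) in 33.9% and 10, the TATA motif (TATAAA) in 12.4% and 4, and the AP-1 motif (TGANTCA) in 6.75% and 1, that of Col6a1. No motif contains another, and a match describes letters only. Capitals mark the matches within the stretches shown, which are 1 GC box and 1 CCAAT box (on the other strand) for Col7a1 and 2 TATA motifs for Col17a1. The 250 bases searched for Col17a1 also held a CCAAT box, which does not lie within the shorter stretch shown. The windows are chr9:108953336-108953585 on the plus strand and chr19:47692095-47692292 on the minus strand, each 5′ to 3′ on the strand of its gene and cut where a transcript begins.
Col7a1: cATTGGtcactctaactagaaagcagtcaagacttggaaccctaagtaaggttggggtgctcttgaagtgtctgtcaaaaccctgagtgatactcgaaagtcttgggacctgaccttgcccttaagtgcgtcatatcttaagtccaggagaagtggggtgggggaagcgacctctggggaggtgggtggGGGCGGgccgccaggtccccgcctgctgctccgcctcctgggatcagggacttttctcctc
Col17a1: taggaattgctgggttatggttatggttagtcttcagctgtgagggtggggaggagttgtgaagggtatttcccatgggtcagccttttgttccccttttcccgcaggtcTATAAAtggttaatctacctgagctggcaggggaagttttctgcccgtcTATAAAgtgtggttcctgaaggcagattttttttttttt

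The type VI chains that make the common microfibril were highest in the bleomycin library and lower with either drug. Col6a3 (chr1:90766860-90843971), the long chain of the trimer, was at 418 CPM in the control, 596 in the bleomycin library and 396 with EHP-101, and at 381, 315 and 378 under ajulemic acid (358 ± 37.4). Col6a1 (chr10:76708792-76726044) was at 168, 232 and 178 CPM and at 167, 154 and 156 (159 ± 6.69). Col6a2 (chr10:76595756-76623404) was at 163, 201 and 146 CPM and at 145, 135 and 144 (141 ± 5.25). For all 3 genes every ajulemic acid library was below the bleomycin library and also below the control. Over all genes the shares were 24.6% below the bleomycin library and 22.2% below the control. The gap to the control was small for Col6a1, at 166.7 CPM in ajulemic acid replicate 1 against 167.6. Against the control the ajulemic acid group differed by -0.22 for Col6a3 (SE 0.20), -0.08 for Col6a1 (SE 0.16) and -0.21 for Col6a2 (SE 0.15). Against the bleomycin library the ajulemic acid group differed by -0.73 for Col6a3 (SE 0.19), -0.55 for Col6a1 (SE 0.15) and -0.51 for Col6a2 (SE 0.15). Unadjusted p was 0.0134, 0.0168 and 0.0209, and adjusted p by edgeR was 0.843, 0.939 and 0.998. With EHP-101 the differences were -0.59 (SE 0.25), -0.38 (SE 0.19) and -0.46 (SE 0.19), with unadjusted p of 0.0640 for Col6a3 and 0.0621 for Col6a2. Between bleomycin and control the values were 0.51, 0.47 and 0.30. Per length, Col6a1 stood to Col6a2 at 0.963 in the control, 1.08 with bleomycin, 1.14 with EHP-101 and 1.05 ± 0.0355 under ajulemic acid, so the 2 chains kept near-equal levels. Of the exon length of Col6a1, 22.2% is overlapped by a gene on the opposite strand, and whether the counting used strand is not stated in the labels. Summed fibroblast markers were highest in the control at 3480 CPM, with 2247 in the bleomycin library, and Gsn alone gave 2054 and 1293 of these. Between bleomycin and control 7 of the 10 listed genes were negative and 3 positive, with a median log2 fold change of -0.48. Fbln2, 1 of the 3, was highest in the bleomycin library, at 196 CPM. It was at 78.0 in the control, 107 with EHP-101 and 97.2 to 119 under ajulemic acid. The part of fibroblast content in the type VI values was not tested.

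The 3 alternative type VI chains lie next to each other on chromosome 9 and did not vary together. Col6a6 (chr9:105689417-105828085, minus strand) was at 10.8 CPM in the control, 2.95 in the bleomycin library and 5.92 with EHP-101, and at 3.55, 3.90 and 2.49 under ajulemic acid (3.31 ± 0.731). All 5 bleomycin-exposed libraries were below the control. Its neighbour Col6a5 (chr9:105856070-105960643, minus strand) was at 3.61 CPM in the control, 13.03 in the bleomycin library and 13.3 with EHP-101, and at 12.0, 9.52 and 7.23 under ajulemic acid (9.58 ± 2.38). Here all 5 were above the control. Per length, Col6a5 stood to Col6a6 at 0.270 in the control (exact binomial 95% interval 0.195 to 0.368), 3.55 in the bleomycin library (2.56 to 4.997) and 1.81 with EHP-101 (1.42 to 2.32), and at 2.72, 1.96 and 2.33 under ajulemic acid (2.34 ± 0.379). The more abundant of the pair was thus Col6a6 in the control library and Col6a5 in each of the other 5. Between bleomycin and control, Col6a6 differed by -1.87 (SE 0.45) and Col6a5 by 1.85 (SE 0.45), with unadjusted p of 0.00938 and 0.00949 and an adjusted p of 0.591 for both by edgeR. Between ajulemic acid and control the values were -1.70 (SE 0.33; unadjusted p 0.00383, adjusted p 0.230 by edgeR) and 1.40 (SE 0.39; 0.0160 and 0.439). Between EHP-101 and control they were -0.86 (SE 0.43) and 1.88 (SE 0.44). Against the bleomycin library Col6a6 differed by 1.002 with EHP-101 (SE 0.446), with an unadjusted p of 0.0762. Col6a4 (chr9:105990318-106096691), the third of the row, was low at 1.51, 0.898 and 0.915 CPM and at 2.52, 0.459 and 2.49 under ajulemic acid. It differed by 1.01 between ajulemic acid and bleomycin (SE 1.06).

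The stretches before the Col6a5 and Col6a6 starts are shown because the pair lay on opposite sides of the control. They are chr9:105960644-105960893 and chr9:105828161-105828335 on the minus strand of RefSeq's GRCm38.p6, 5′ to 3′, with GC boxes in capitals, of which there were 1 and 2. No CCAAT, TATA or AP-1 letters were found in either stretch.
Col6a5: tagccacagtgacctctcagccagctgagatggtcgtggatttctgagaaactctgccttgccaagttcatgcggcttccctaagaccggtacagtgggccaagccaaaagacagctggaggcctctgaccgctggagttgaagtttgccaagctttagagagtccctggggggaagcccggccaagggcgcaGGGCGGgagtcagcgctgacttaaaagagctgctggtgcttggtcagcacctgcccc
Col6a6: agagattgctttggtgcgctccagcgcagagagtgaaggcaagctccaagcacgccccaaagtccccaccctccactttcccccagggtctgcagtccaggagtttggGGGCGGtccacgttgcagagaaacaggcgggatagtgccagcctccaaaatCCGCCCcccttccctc

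**Figure D5:**
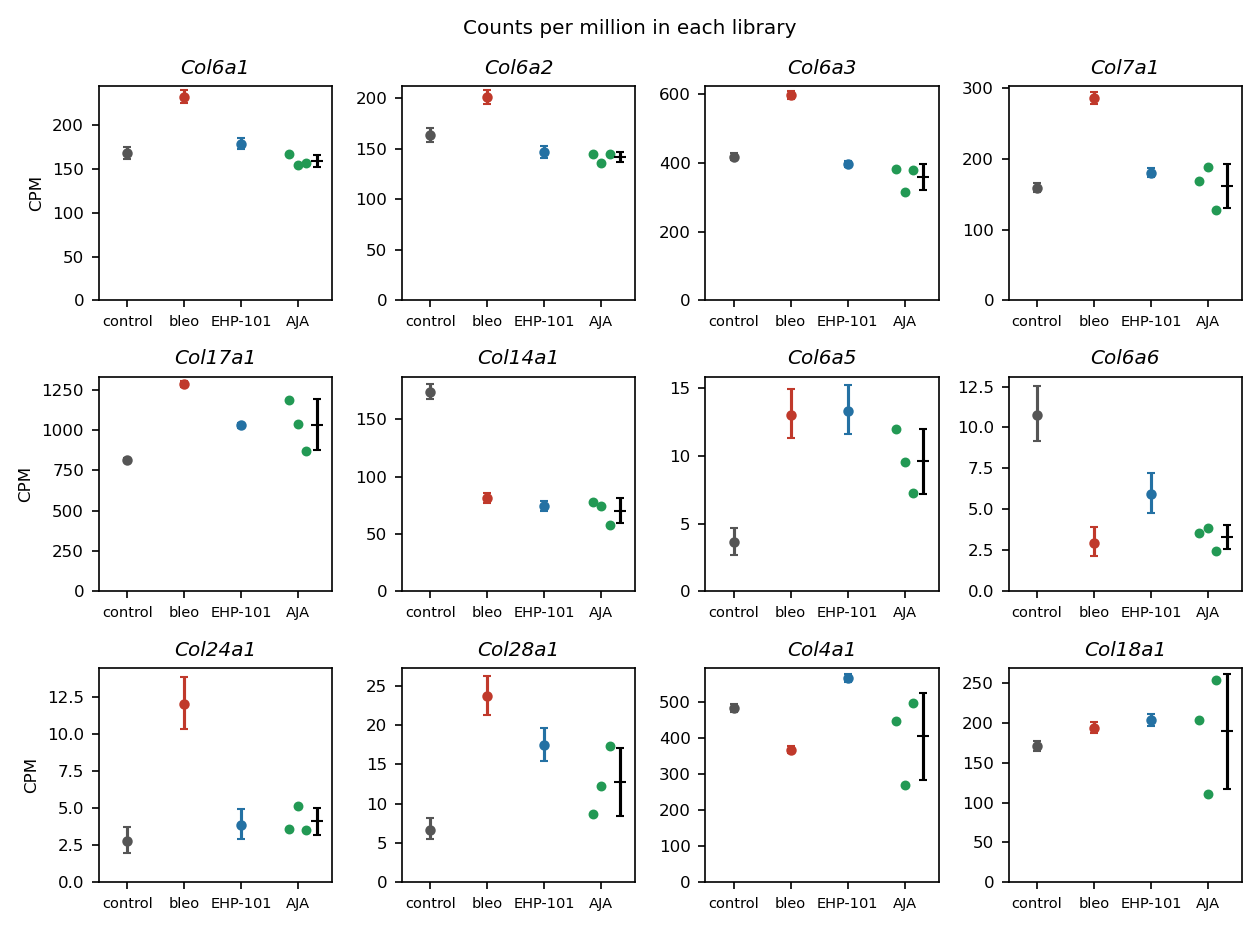
CPM in each library (points), with mean and SD for the 3 ajulemic acid libraries; bars on the groups of 1 are exact Poisson 95% intervals, which cover counting error only. Col6a6 and Col14a1 are highest in the control at 10.8 and 174 CPM, and Col24a1 and Col7a1 are highest in the bleomycin library at 12.0 and 286 CPM.

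Of the FACIT genes, Col14a1, whose product binds dermal fibrils and is made by fibroblasts, was lower in every bleomycin-exposed library than in the control. Col14a1 (chr15:55307750-55520803, plus strand) was at 174 CPM in the control, 81.4 in the bleomycin library and 74.3 with EHP-101, and at 78.1, 74.4 and 57.7 under ajulemic acid (70.1 ± 10.9). The 5 exposed libraries lay close together, well under the control. It differed by -1.31 between ajulemic acid and control (SE 0.21), with an unadjusted p of 0.00177 and an adjusted p of 0.153 by edgeR. Between bleomycin and control the difference was -1.09 (SE 0.28; unadjusted p 0.0118), and between EHP-101 and control -1.23 (SE 0.28; unadjusted p 0.00765). DESeq2 called it lower with ajulemic acid than in the control, with a log2 fold change of -1.33 and an adjusted p of 0.00191, and edgeR did so without ajulemic acid replicate 3 (-1.19, adjusted p 0.0185). These 3 comparisons share the 1 control library. Summed white adipocyte and fibroblast markers were highest in that library too, at 2411 and 3480 CPM against 856 to 1608 and 1480 to 2904 in the other 5, and their part was not tested.

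Col16a1, the most abundant FACIT gene at a mean of 25.02 RPKM, was level across libraries with 123 CPM in the control, 133 with bleomycin, 130 with EHP-101 and 132 ± 18.1 under ajulemic acid. Col20a1 was at 13.01 CPM in the control and 13.4 to 18.1 in the other 5. The type IX chain Col9a3, a partner of cartilage fibrils, was at 3.22, 1.67 and 3.78 CPM and 2.88 ± 1.29, and 8.08% of its exon length is overlapped by Tcfl5 on the opposite strand. Its difference from the bleomycin library was 1.18 with EHP-101 (SE 0.74) and 0.79 with ajulemic acid (SE 0.63). Col9a3 was about equally low in the bleomycin library and in ajulemic acid replicate 2, at 1.67 and 1.66 CPM. Summed cartilage markers were lowest in the bleomycin library, at 55.8 CPM against 79.7 to 106 elsewhere. Sox9 alone gave 52.0 CPM of the sum in the bleomycin library and 71.55 of 80.9 in the control. Of the 10 listed genes 4 had enough counts for testing, and 3 defining cartilage genes were at 0 in at least 1 library. Col19a1 (0.614 to 2.50 CPM) and Col22a1 (0.197 to 1.49 CPM) had under 10 counts in at least 1 library.

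Apart from Col17a1, the transmembrane collagens were low. Col23a1 was at 29.2 CPM in the control, 27.6 with bleomycin, 30.1 with EHP-101 and 27.7 ± 3.37 under ajulemic acid, within the replicate spread throughout. Col13a1, which is known from the neuromuscular junction, was at 1.77 to 2.43 CPM. Col25a1 was highest with EHP-101 at 6.04 CPM, against 1.97 in the control, 2.70 with bleomycin and 2.59, 1.32 and 2.54 under ajulemic acid. The EHP-101 library stood above the other 5, which overlapped. Between EHP-101 and ajulemic acid Col25a1 differed by 1.49 (SE 0.45), with an unadjusted p of 0.0227 and an adjusted p of 0.9999 by edgeR. Of the network-forming chains, Col8a2, found in the basement membrane of corneal endothelium, was at 22.2, 28.2 and 17.7 CPM and at 18.1, 29.7 and 15.01 under ajulemic acid (20.9 ± 7.75). Col10a1, the collagen of hypertrophic cartilage, was at 8.87, 8.86 and 8.91 CPM and 7.89 ± 2.18. Neither differed by more than the spread of the ajulemic acid libraries.

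Col28a1, a von Willebrand factor domain collagen known from peripheral nerve, was higher in every bleomycin-exposed library than in the control. Col28a1 (chr6:7997808-8192617, minus strand) was at 6.70 CPM in the control, 23.7 with bleomycin and 17.5 with EHP-101, and at 8.73, 12.3 and 17.3 under ajulemic acid (12.8 ± 4.31). The bleomycin library was the highest and the ajulemic acid libraries spread from near the control to the EHP-101 value. The log2 fold change between bleomycin and control was 1.82 (SE 0.52), with an unadjusted p of 0.0185 and an adjusted p of 0.659 by edgeR. It was -0.89 between ajulemic acid and bleomycin (SE 0.39). Summed Schwann cell markers were 182 CPM in the control, 373 in the bleomycin library and 242 with EHP-101, and 166, 226 and 161 under ajulemic acid. Both were highest in the bleomycin library, and the part of Schwann cell content was not tested. Col26a1 was at 0.526 CPM in the control and 0.573 to 1.77 in the others, with under 10 counts in at least 1 library.

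The 4 fibrillar chains kept by the rule had a median log2 fold change of 0.82 between bleomycin and control. Col24a1 (chr3:145292472-145552005, plus strand), a minor fibrillar chain known from bone and cornea, was at 2.76 CPM in the control, 12.0 in the bleomycin library and 3.84 with EHP-101, and at 3.61, 5.16 and 3.54 under ajulemic acid (4.10 ± 0.914). The bleomycin library stood alone, with the drug-treated libraries near the control. Its log2 fold change was 2.12 between bleomycin and control (SE 0.44; unadjusted p 0.00515), -1.64 between EHP-101 and bleomycin (SE 0.43; unadjusted p 0.0128) and -1.55 between ajulemic acid and bleomycin (SE 0.32; unadjusted p 0.00496). Adjusted p by edgeR was 0.518, 0.9998 and 0.498, and all 3 values share the bleomycin library. Col27a1, a fibrillar chain of cartilage, was at 17.1, 25.1 and 24.8 CPM and at 17.9, 17.7 and 13.97 under ajulemic acid. The EHP-101 library was thus level with bleomycin for Col27a1 and the ajulemic acid libraries were near the control. The difference between EHP-101 and ajulemic acid was 0.59 (SE 0.22; unadjusted p 0.0480, adjusted p 0.9999 by edgeR). Col11a2 was at 4.01, 3.34 and 5.49 CPM and at 4.84, 2.98 and 5.89 under ajulemic acid. Its difference from the bleomycin library was 0.45 with ajulemic acid (SE 0.47). Col2a1, the main chain of cartilage fibrils, had 1 to 19 counts per library.

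By class, the median log2 fold change between bleomycin and control was -0.24 for the 6 type IV chains, -0.11 for the 2 multiplexins, 0.38 for the 6 type VI chains, 0.26 for the tested FACIT genes, 0.18 for the 4 transmembrane genes and 0.17 for the 2 network genes. Between ajulemic acid and bleomycin the same classes were at -0.12, -0.03, -0.48, -0.12, -0.15 and -0.30. With EHP-101 against bleomycin they were at -0.14, 0.19, -0.18, 0.25, 0.25 and -0.33. The single anchoring fibril gene was at 0.84, -0.82 and -0.66, and Col26a1 and Col28a1 had a median of 1.62, -0.87 and -0.06 in the same order of comparisons. Medians hide the spread within a class: the type VI chains ran from -1.87 to 1.85 between bleomycin and control. The non-fibrillar Col8a1 and Col12a1, left out by the rule, do not enter any of these medians. They were at 3.53 and 1.90 between bleomycin and control.

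Each drug-treated group was also set against the control. Between EHP-101 and control the members' median was 0.18, with 23 of 33 positive. Col6a5, Col25a1, Col26a1 and Col28a1 had higher values and Col14a1 a lower value at an unadjusted p under 0.05, where the shares over all genes were 2.92% and 1.71% and 0% passed the adjusted threshold by edgeR (0 by limma, and 93 higher and 27 lower by DESeq2). Without ajulemic acid replicate 1 the members counted were 2 higher and 1 lower, beside 265 and 98 of all 17384 genes tested. Without replicate 2 they were 3 and 2, beside 671 and 679 of 17315. Between ajulemic acid and control the median was 0.02, with 17 of 33 positive. Col6a5 was higher and Col14a1, Col6a6 and Col4a3 were lower at that level, against 3.02% and 4.1% of all genes, and 0.0345% of all genes passed the adjusted threshold by edgeR (0 genes by limma, and 98 higher and 178 lower by DESeq2). Without ajulemic acid replicate 1, 2 members were higher and 2 lower, beside 197 and 397 of all 17384 genes tested. Without replicate 3 they were 2 and 3, beside 1089 and 835 of 17327. The 3 ajulemic acid libraries were all above the control for 8 members (24.2%) and all below it for 9 (27.3%), near the shares of 26.9% and 22.2% over all genes. The control was above all 5 exposed libraries for 6 of the 33 and below them for 8, against 17.9% and 22.0% of all genes. The 6 were Col4a3, Col4a4, Col6a6, Col13a1, Col14a1 and Col15a1, and the 8 were Col4a5, Col6a5, Col17a1, Col20a1, Col22a1, Col24a1, Col26a1 and Col28a1.

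The 2 drugs were compared directly, at doses that the labels do not give. Members were mostly somewhat higher with EHP-101 than with ajulemic acid, with 25 of 33 positive and a median of 0.16, where 45.5% of all genes were positive. Col25a1 and Col27a1 were higher at an unadjusted p under 0.05 and 0 members lower, against 1.97% and 0.397% of all genes, and 0% of all genes passed the adjusted threshold by edgeR (0 by limma, and 63 higher and 1 lower by DESeq2). Without ajulemic acid replicate 1 the members counted were 1 higher and 0 lower, beside 192 and 14 of all 17384 genes tested. Without replicate 2 they were 3 and 1, beside 619 and 219 of 17315. Without replicate 3 they were 3 and 0, beside 436 and 430 of 17327. Col14a1 differed by 0.09 (SE 0.22) and Col24a1 by -0.09 (SE 0.35), and both changed sign when 1 ajulemic acid replicate was left out (-0.0368 without replicate 3 and 0.1249 without replicate 2). Col6a6 differed by 0.84 (SE 0.34), with an unadjusted p of 0.0601. A p that misses the threshold with 1 EHP-101 library does not show that the drugs act alike.

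Genes that make, hold or sense collagen were read from 4 lists, and edgeR, DESeq2 and limma each called 0 of their genes between bleomycin and control or between either drug and bleomycin. Among 26 collagen biosynthesis genes, 19 were positive between bleomycin and control (median 0.21), and 22 were negative with ajulemic acid and 21 with EHP-101 against bleomycin (medians -0.23 and -0.25). Unadjusted p was under 0.05 for 3 genes with higher values in the first comparison and for 1 gene with a lower value in each of the other 2, where the shares over all genes were 4.7% higher in the first and 1.32% and 3.21% lower with EHP-101 and ajulemic acid. P4ha3, a catalytic subunit of prolyl hydroxylase, was at 1.18 CPM in the control, 7.89 with bleomycin, 1.95 with EHP-101 and 3.17 ± 0.784 under ajulemic acid. Its log2 fold change was 2.73 between bleomycin and control (SE 0.52) and -1.31 between ajulemic acid and bleomycin (SE 0.36). P4ha2, of the same enzyme family, was at 7.56, 19.3 and 10.98 CPM and 11.3 ± 2.62. Both were thus highest in the bleomycin library.

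Among 21 basement membrane partners, 9 were positive and 12 negative between bleomycin and control (median -0.06), of which 2 of the positive and 1 of the negative genes had an unadjusted p under 0.05 (4.7% and 2.1% of all genes). Lama3, a laminin chain of the epidermal basement membrane, was among the higher and was at 151 CPM in the control, 229 with bleomycin, 164 with EHP-101 and 159 ± 10.3 under ajulemic acid. Nid1, which links laminin to type IV collagen, was at 237, 132 and 117 CPM and 96.2 ± 9.74, highest in the control like Col14a1; between ajulemic acid and control DESeq2 called it lower (-1.32, adjusted p 0.000114), where edgeR did not. With ajulemic acid 15 of the 21 were negative against bleomycin (median -0.14), 2 of them (Lama3 and Sparc) at an unadjusted p under 0.05 (3.21% of all genes), and with EHP-101 13 were positive (median 0.20), 1 at that level (0.575%). Of 9 hemidesmosome and anchorage genes, 7 were positive between bleomycin and control (median 0.56), with Krt14 at 1112.5 CPM in the control and 2300 with bleomycin and Itgb4 at 144 and 217. Those 2 had an unadjusted p under 0.05, against 4.7% of all genes. With ajulemic acid 5 of the 9 were negative (median -0.11, 0 at that level) and with EHP-101 7 were negative (median -0.14, 1 at that level against 1.32% of all genes).

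Of 12 collagen receptors, 7 were positive between bleomycin and control (median 0.21), and 10 were negative with each drug against bleomycin (medians -0.25 with EHP-101 and -0.27 with ajulemic acid). Lair1, an inhibitory collagen receptor of leukocytes, was at 1.25 CPM in the control, 5.45 with bleomycin, 2.44 with EHP-101 and 4.88 ± 0.884 under ajulemic acid, and was the 1 receptor with a higher value at an unadjusted p under 0.05 in the first comparison (4.7% of all genes). Itga11, a subunit of a fibroblast integrin that binds fibrillar collagen, was at 14.8, 22.7 and 9.89 CPM and 9.54 ± 1.79. It differed by -1.24 between ajulemic acid and bleomycin (SE 0.26; unadjusted p 0.00560, adjusted p 0.527 by edgeR), and Mrc2, an uptake receptor for collagen, by -0.52 (SE 0.18). These were the 2 receptors lower at an unadjusted p under 0.05 with ajulemic acid (3.21% of all genes), and with EHP-101 there were 3 (1.32% of all genes).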

How the data were processed

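Total RNA (300 ng) from 6 skin samples was depleted of ribosomal RNA and sequenced from stranded libraries as single reads of 50 bases, per the labels' protocols. Trimmomatic 0.36, HISAT2 2.1.0, featureCounts 1.6.1, DESeq2 1.20.0 and mm10 are named in the submitters' processing notes; the strand setting and the handling of multi-mapped reads were not given in the sources used here. The authors deposited raw counts per gene by NCBI gene number in 2 tables, which held the same counts for these 6 libraries (0 differing values). One table has 6 further sample columns from another series, not used here, whose names give 2 more replicates each of the control, bleomycin and EHP-101 groups; the single libraries of these groups follow from that. Of 27179 genes, 25275 had a symbol in RefSeq's table for GRCm38.p6.

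Ajulemic acid replicates differed beyond sampling noise (chi-square per degree of freedom 35.0 to 124), so none was treated as a repeat deposit of another; this does not show separate animals. Counts were tested with edgeR 4.0.16 (R 4.3.3): filterByExpr with a minimum count of 10, TMM scaling, and a robust quasi-likelihood test over all 6 libraries, with Benjamini-Hochberg adjustment over 17377 genes and a threshold of 0.05. The fit had 2 residual degrees of freedom, which belong to the ajulemic acid group (common biological coefficient of variation 0.267). CPM and RPKM used TMM library sizes; log2 CPM used a prior count of 3. Alternatives were DESeq2 1.42.0, limma 3.58.1 (trend), other scalings, no filter, and each ajulemic acid replicate left out.

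The members and gene lists were chosen with earlier results of these data known. Given with their levels were the most abundant member of each class and, in 3 comparisons, the 3 members of smallest unadjusted p in each direction. The comparisons were bleomycin against control and each drug against bleomycin. From each list, up to 2 genes per direction could be named by their unadjusted p in bleomycin against control and ajulemic acid against bleomycin. Other members were described for their role. One gene eligible by this rule is not reported here.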

Additional observations from a re-analysis of the deposited data

How the results depend on the processing

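Log2 fold changes of named members, 58 pairs of a gene and a comparison, were recomputed under 9 alternatives, and 511 of 522 values kept their direction and their side of the adjusted threshold. Col14a1 between ajulemic acid and control passed it with DESeq2 and without ajulemic acid replicate 3, and 9 values changed sign: with total counts as library size, Col16a1 (0.0384) and Col27a1 (0.0598) between EHP-101 and bleomycin, and Col24a1 (0.0097) between EHP-101 and ajulemic acid; without ajulemic acid replicate 2, Col27a1 between EHP-101 and bleomycin, Col24a1 between EHP-101 and ajulemic acid, and Col16a1 and Col18a1 between ajulemic acid and bleomycin; and without replicate 3, Col4a1 between ajulemic acid and bleomycin and Col14a1 between EHP-101 and ajulemic acid. Over the 3 replicates left out in turn, these ran from -0.0187 to 0.0138 for Col27a1, -0.1097 to 0.0971 for Col16a1, -0.3027 to 0.2459 for Col18a1, -0.037 to 0.3737 for Col4a1, -0.1933 to 0.1249 for Col24a1 and -0.0368 to 0.1697 for Col14a1. The members' median moved with total counts to 0.31 between bleomycin and control, 0.0867 between EHP-101 and bleomycin, 0.31 between EHP-101 and control, 0.0482 between ajulemic acid and control, and 0.26 between EHP-101 and ajulemic acid; that scaling put the median of all genes between EHP-101 and control at 0.13. With limma it was -0.0222 between ajulemic acid and control and 0.19 between EHP-101 and ajulemic acid. Leaving out each ajulemic acid replicate in turn gave medians of 0.19 to 0.26 between bleomycin and control, 0.0082 to 0.0408 between EHP-101 and bleomycin, -0.26 to -0.16 between ajulemic acid and bleomycin, 0.15 to 0.18 between EHP-101 and control, -0.0245 to -0.0084 between ajulemic acid and control, and 0.15 to 0.20 between EHP-101 and ajulemic acid. Between ajulemic acid and control, DESeq2 called 1 member (Col14a1), and leaving out a replicate with edgeR gave 0 to 1; the cause was not tested. Over all genes, edgeR without ajulemic acid replicate 3 called 139 higher and 38 lower between bleomycin and control, 2 and 90 between ajulemic acid and bleomycin, 72 and 19 between EHP-101 and control, 137 and 230 between ajulemic acid and control, and 65 and 2 between EHP-101 and ajulemic acid; without replicate 2 the counts were 6 and 2, 7 and 62, 7 and 2, 45 and 171, and 18 and 0. With no filter they were 0 and 41 between ajulemic acid and bleomycin, 27 and 126 between ajulemic acid and control, and 16 and 0 between EHP-101 and ajulemic acid. No paired analysis was possible because the groups share fewer than 2 replicate numbers. Depth limits the members with few counts: 5 tested members had under 10 counts in at least 1 library. With 1 library in 3 of the 4 groups, the spread of those groups was taken from the ajulemic acid libraries.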
